A study of Mus musculus with 23 samples.

Results

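Described here are 31 genes of cholesterol synthesis, uptake and efflux, among the 20308 genes of an RNA-seq table of the mouse ventral prostate. They were chosen by their known roles, with earlier results of these data known. All 31 were found in the table and all 31 passed the filter on low counts, which left 13412 genes. Their levels were followed from the intact gland to 3 d and 10 d after castration, to see how far they fell by 3 d and how far they had returned by 10 d. The mice were C57BL/6J males kept from before birth on a folic acid diet (24 mg folic acid per kg) or on a control diet (4 mg per kg). Intact glands were collected at 7 weeks of age. The other mice were castrated at that age and their glands collected after 3 or 10 d. The folic acid diet had 4 libraries in each of the 3 states (intact, 3 d and 10 d), and the control diet had 4 of intact glands, 3 at 3 d and 4 at 10 d. The protocols speak of 4 mice per group, so each library was taken as 1 mouse, and they name no litter and no sham operation. Castrated mice were older than intact ones at collection, so effects of androgen loss, surgery and age cannot be told apart.

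Cells make cholesterol from acetyl-CoA through mevalonate, squalene and lanosterol. The transcription factor SREBP2, encoded by Srebf2, turns on the enzymes of this route when sterols are scarce: SCAP carries it out of the endoplasmic reticulum, and the INSIG proteins hold SCAP back when sterols are plentiful. When sterols are in excess, the liver X receptors (Nr1h2 and Nr1h3) turn on the exporters Abca1 and Abcg1 and the ubiquitin ligase Mylip, which sends lipoprotein receptors to degradation. The prostate epithelium is known for active lipid synthesis, and androgens are known to raise lipid synthesis genes in prostate cancer cell lines.

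Libraries held between 6381550 and 15616042 counts. Sbp, a major secreted protein of the ventral prostate, took 49.3 to 59.8% of the counts in intact glands, 26.2 to 38.8% at 3 d and 4.78 to 16.2% at 10 d. Levels are CPM, counts brought to one common library size with factors of the TMM method, which sets the bulk of genes equal between libraries. With library totals alone, the median gene of folic acid glands would stand higher than in intact ones by 0.80 (log2) at 3 d and 1.31 at 10 d. In control-diet glands it would stand higher by 0.73 and 1.15. Every change below is therefore relative to the bulk of genes. In RNA from whole glands, fewer cells of a type and less RNA per cell cannot be told apart. The 5 luminal epithelial markers (Krt8, Krt18, Cd24a, Epcam and Cdh1) summed to 3313 to 5074 CPM over all 23 libraries, and none of the 5 was lower in a castration comparison. Seminal vesicle markers summed to at most 1.76 CPM and markers of steroid-producing tissue to at most 2.66 CPM. Libraries stood apart in muscle or stromal transcripts: control intact replicate 2 had 2977 CPM of 5 skeletal muscle genes, and folic acid intact replicate 3 and folic acid 10 d replicates 2 and 3 had 333, 2658 and 462 CPM of 5 smooth muscle genes. Calls lost without these 4 libraries are named beside each result. Leaving them out takes a library from each intact group and replicates 2 and 3 from the folic acid 10 d group, so those comparisons rest on fewer libraries. Other libraries were also low in smooth muscle genes within their group and were kept. These were folic acid 3 d replicate 2 (501 CPM), control 10 d replicate 1 (579.5 CPM) and control 3 d replicate 4 (690.8 CPM).

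Promoter sequences are shown for the members that fell by 3 d and rose again by 10 d (Idi1, Cyp51 and Insig1), and for Hmgcs1, which holds a match to the sterol regulatory element. They run from 250 bases before to 50 bases after the RefSeq gene start (GRCm38.p6), written 5′ to 3′ on the gene's strand. RefSeq windows were found for 24 of the 31 members, and not used here for Fdps, Fdft1, Sqle, Stard4, Npc1, Scarb1 and Abcg1. Capitals mark the 3 motifs searched on both strands: the sterol regulatory element TCACNCCAC, the E-box CACGTG and the CCAAT box, which reads ATTGG where it lies on the other strand. The motifs do not overlap one another in these 4 windows.
Idi1, chr13:8885356-8885655, plus strand: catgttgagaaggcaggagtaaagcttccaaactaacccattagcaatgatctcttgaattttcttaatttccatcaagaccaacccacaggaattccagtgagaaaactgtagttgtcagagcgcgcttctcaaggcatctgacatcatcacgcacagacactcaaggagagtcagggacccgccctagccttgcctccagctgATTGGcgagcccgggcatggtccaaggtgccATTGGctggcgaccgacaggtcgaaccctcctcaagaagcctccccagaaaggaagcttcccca
Cyp51, chr5:4104648-4104947, minus strand: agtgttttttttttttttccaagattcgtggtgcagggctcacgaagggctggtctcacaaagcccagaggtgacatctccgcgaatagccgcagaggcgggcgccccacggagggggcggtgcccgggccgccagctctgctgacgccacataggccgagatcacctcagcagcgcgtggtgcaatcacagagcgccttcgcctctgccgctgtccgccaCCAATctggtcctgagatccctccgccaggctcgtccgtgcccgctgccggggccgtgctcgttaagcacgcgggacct
Insig1, chr5:28071162-28071461, plus strand: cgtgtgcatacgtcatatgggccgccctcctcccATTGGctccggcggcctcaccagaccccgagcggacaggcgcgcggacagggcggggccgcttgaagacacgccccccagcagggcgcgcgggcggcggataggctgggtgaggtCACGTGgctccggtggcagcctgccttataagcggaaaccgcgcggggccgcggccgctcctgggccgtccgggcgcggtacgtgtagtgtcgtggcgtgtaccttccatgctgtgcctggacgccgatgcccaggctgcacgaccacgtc
Hmgcs1, chr13:119690101-119690400, plus strand: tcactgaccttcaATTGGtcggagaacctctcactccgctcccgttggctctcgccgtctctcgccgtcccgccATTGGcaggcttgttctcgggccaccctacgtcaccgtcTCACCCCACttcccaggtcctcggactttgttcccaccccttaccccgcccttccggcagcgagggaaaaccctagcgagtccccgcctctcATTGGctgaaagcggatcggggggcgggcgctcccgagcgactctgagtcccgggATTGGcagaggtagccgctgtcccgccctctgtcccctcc
A CCAAT box was found in the windows of 19 of the 24 members, among them 14 of 15 synthesis enzymes, against 41.1% of the 27025 gene symbols with a window. In Idi1 the boxes begin 45 and 14 bases before the start, in Cyp51 29 bases before it and in Insig1 216 bases before it. Insig1 also holds an E-box that begins 101 bases before its start, and E-boxes were found in 6 of 24 members and in 8.09% of symbols. The exact sterol element was found in Hmgcs1 alone, 137 bases before its start, and in 1.44% of all symbols. A match of letters is a description of these windows and not a site at which a factor was measured.

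After castration 15 of the 18 synthesis enzymes were lower at 3 d, and 15 at 10 d, on the folic acid diet; with the control diet 11 fell by 3 d, and 6 were still lower at 10 d. The exporter Abca1 and the ligase Mylip rose at both times on both diets. At 3 d on the folic acid diet 19 of the 31 members were lower than in intact glands and 2 were higher, against 8.27% lower and 6.07% higher among all genes tested. At 10 d on that diet 19 were lower and 4 higher, against 11.7% and 10.2% of all genes. With the control diet 15 members were lower at 3 d and 2 higher, against 6.15% and 3.83% of all genes. At 10 d on the control diet 8 were lower and 3 higher, against 9.45% and 7.15% of all genes. A call is an adjusted p under 0.05 in edgeR's quasi-likelihood test over all genes. The 15 members lower at 3 d on the control diet were all lower at 3 d on the folic acid diet too, and 8 members were lower in all 4 comparisons: Fdps, Lss, Tm7sf2, Msmo1, Sc5d, Dhcr7, Scap and Npc2. The share of all genes lower in several comparisons at once is not given here, so these overlaps only describe the members. The 2 comparisons of a diet also share their intact libraries. Mvk was called at 10 d on the folic acid diet alone, and 7 members were called in none of the 4 comparisons: Pmvk, Nsdhl, Insig2, Npc1, Scarb1, Nr1h2 and Nr1h3. Without the 4 libraries that stood apart, 10 members were lower and 2 higher at 10 d on the folic acid diet. Both groups of that comparison then hold fewer libraries, and the part of this in the lost calls was not tested. For the control diet, 4 members were lower at 10 d without intact replicate 1 or without 10 d replicate 4, 5 without 10 d replicate 2, and 11 without 10 d replicate 1. On the folic acid diet, 2 members were higher at 10 d without intact replicate 2 or without intact replicate 3.

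**Figure D1:**
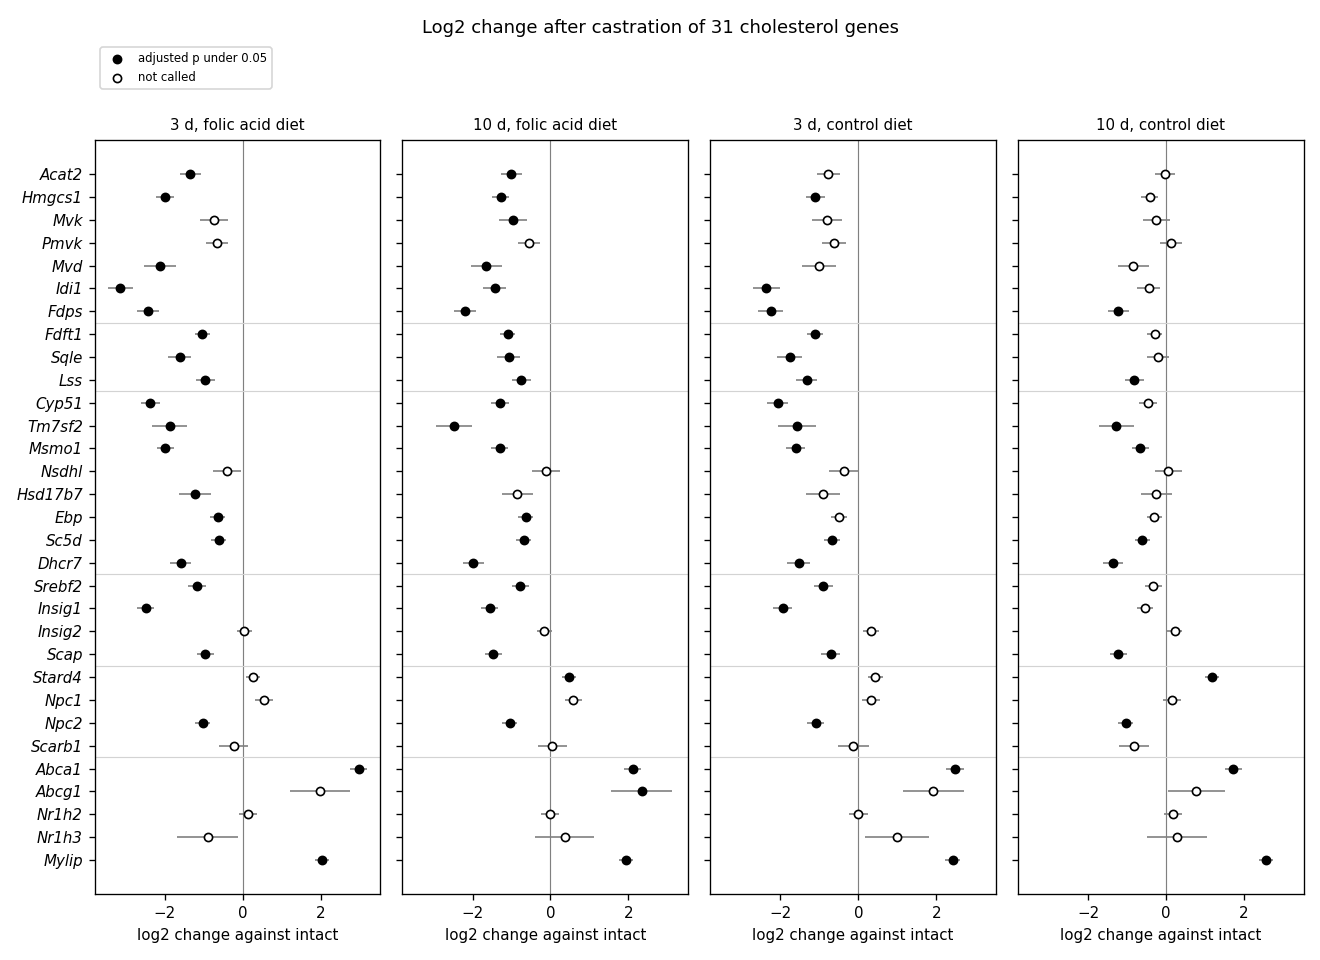
Log2 change (x axis, with standard error bars) of the 31 members at 3 d and 10 d against intact glands on the folic acid diet (left pair of panels) and on the control diet (right pair), on the TMM scale. Filled points are called: Idi1 lies farthest to the left at 3 d on both diets, and Abca1 and Mylip lie to the right in all 4 panels.

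The 7 mevalonate enzymes build isoprenoid units from acetyl-CoA. Of these, 5 fell at 3 d and 6 at 10 d on the folic acid diet, where 8.27 and 11.7% of all genes did. With the control diet 3 fell at 3 d and 1 at 10 d, where 6.15 and 9.45% of all genes did. Idi1 (chr13:8885501-8892451), the isomerase that makes the reactive isoprenoid unit, showed the largest fall of the module at 3 d. Idi1 read 54.9, 59.3, 94.3 and 70.3 CPM in intact glands, 6.95, 8.77, 5.77 and 9.81 CPM at 3 d and 38.4, 19.98, 28.6 and 15.6 CPM at 10 d on the folic acid diet. Idi1 read 68.7, 60.6, 50.3 and 56.1 CPM in intact glands, 12.6, 12.9 and 8.93 CPM at 3 d and 74.4, 40.1, 37.8 and 20.4 CPM at 10 d on the control diet. No castrated gland at 3 d reached an intact one on either diet. At 10 d overlap with intact glands was seen on the control diet only, through replicate 1 alone. The log2 change of Idi1 was -3.15 ± 0.32 (adjusted p = 9.49e-08 by edgeR) at 3 d and -1.44 ± 0.29 (adjusted p = 0.000748 by edgeR) at 10 d on the folic acid diet. With the control diet it was -2.36 ± 0.34 (adjusted p = 2.09e-05 by edgeR) at 3 d, and -0.45 ± 0.29 (adjusted p = 0.328 by edgeR) at 10 d, which is not a call. Without the 4 libraries that stood apart, the 10 d change on the folic acid diet was -1.18 (adjusted p = 0.0654 by edgeR). Without control 10 d replicate 1, the 10 d change on the control diet was -0.85 (adjusted p = 0.0313 by edgeR), a call.

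Fdps (chr3:89093588-89101959) makes farnesyl diphosphate, the branch point to sterols, ubiquinone and prenylated proteins. Fdps read 47.9, 56.4, 55.98 and 43.9 CPM in intact glands, 11.1, 13.01, 7.09 and 6.73 CPM at 3 d and 18.03, 8.02, 8.55 and 9.91 CPM at 10 d on the folic acid diet. Fdps read 58.8, 52.9, 38.3 and 50.02 CPM in intact glands, 9.22, 11.8 and 10.5 CPM at 3 d and 34.1, 22.6, 17.2 and 11.8 CPM at 10 d on the control diet. Every castrated gland lay below every intact gland of its diet at both times. Its log2 change was -2.43 ± 0.28 (adjusted p = 3e-07 by edgeR) at 3 d and -2.19 ± 0.28 (adjusted p = 6.93e-07 by edgeR) at 10 d on the folic acid diet. It was -2.25 ± 0.31 (adjusted p = 5.29e-06 by edgeR) at 3 d and -1.23 ± 0.27 (adjusted p = 0.00132 by edgeR) at 10 d with the control diet.

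Hmgcs1, the cytosolic synthase that makes HMG-CoA, ranged over 41.2 to 48.5 CPM at 3 d on the folic acid diet, below the 139 to 198 CPM of intact glands. At 10 d on the control diet it ranged from 57.8 to 181.5 CPM, against 112.5 to 175 CPM in intact glands, and the highest value belonged to replicate 1. Its change at 10 d was -1.28 ± 0.23 (adjusted p = 0.000115 by edgeR) on the folic acid diet and -0.42 ± 0.22 (adjusted p = 0.216 by edgeR) on the control diet, where without replicate 1 it was -0.84 (adjusted p = 0.00176 by edgeR). Mvd, the decarboxylase, and Acat2, the thiolase at the head of the route, fell at both times on the folic acid diet and were called at neither on the control diet. A fit of only the groups compared did call Mvd lower at 10 d on the control diet (-0.85, adjusted p = 0.0455 by edgeR). The change of Mvd was -2.13 ± 0.41 (adjusted p = 0.00048 by edgeR) at 3 d on the folic acid diet, and that of Acat2 -1.35 ± 0.27 (adjusted p = 0.000792 by edgeR); at 10 d both lost their call without the 4 libraries that stood apart (adjusted p = 0.117 by edgeR each). Acat2 can share reads with its close copy Acat3. Mvk, the mevalonate kinase, was called only at 10 d on the folic acid diet (-0.97 ± 0.35 (adjusted p = 0.0471 by edgeR)), and Pmvk, the next kinase, nowhere. The Mvk call was lost when any of 5 single libraries was left out, with -0.59 (adjusted p = 0.278 by edgeR) without folic acid intact replicate 3 and -0.45 (adjusted p = 0.604 by edgeR) without the 4 libraries. With library totals alone the changes of Acat2 and Mvk at 10 d on the folic acid diet would be positive, not negative. Neither would be a call (adjusted p = 0.531 and 0.458 by edgeR).

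From squalene to lanosterol the 3 enzymes Fdft1, Sqle and Lss all fell at 3 d on both diets and at 10 d on the folic acid diet. On the control diet only Lss was lower at 10 d. Among all genes 8.27 and 11.7% were lower at 3 d and 10 d on the folic acid diet. The control-diet shares were 6.15 and 9.45%. With library totals alone the 10 d changes of all 3 on the folic acid diet, and of Lss on the control diet, would be positive. None of these would be a call (edgeR adjusted p between 0.118 and 0.592). Sqle (chr15:59315077-59331192) adds the oxygen of the later sterol ring and is a rate-limiting step. Sqle read 62.5, 75.6, 101 and 66.1 CPM in intact glands, 25.2, 23.8, 27.99 and 22.7 CPM at 3 d and 67.4, 18.2, 32.4 and 26.4 CPM at 10 d on the folic acid diet. Sqle read 97.8, 86.1, 70.2 and 74.9 CPM in intact glands, 24.2, 16.97 and 31.6 CPM at 3 d and 100.4, 69.2, 67.1 and 48.1 CPM at 10 d on the control diet. At 3 d all glands lay below the intact ones, and at 10 d the groups overlapped on both diets, with replicate 1 the highest of each 10 d group. The log2 change of Sqle was -1.62 ± 0.29 (adjusted p = 0.000497 by edgeR) at 3 d and -1.07 ± 0.29 (adjusted p = 0.00878 by edgeR) at 10 d on the folic acid diet. The control-diet values were -1.76 ± 0.33 (adjusted p = 0.000589 by edgeR) at 3 d and -0.21 ± 0.28 (adjusted p = 0.698 by edgeR) at 10 d. Without the 4 libraries that stood apart the 10 d change on the folic acid diet was -0.53 (adjusted p = 0.328 by edgeR).

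Fdft1 (chr14:63145150-63179578), squalene synthase, is the first enzyme committed to sterols. Fdft1 read 88.5, 122, 169 and 93.5 CPM in intact glands, 56.5, 50.6, 58.03 and 65.2 CPM at 3 d and 66.8, 46.6, 55.02 and 52.2 CPM at 10 d on the folic acid diet. Fdft1 read 130.0, 99.5, 97.3 and 88.9 CPM in intact glands, 58.7, 37.4 and 48.98 CPM at 3 d and 91.6, 94.5, 85.9 and 66.3 CPM at 10 d on the control diet. The 10 d glands stood as low as the 3 d glands on the folic acid diet and overlapped with the intact ones on the control diet. The change at 10 d was -1.10 ± 0.19 (adjusted p = 5.07e-05 by edgeR) on the folic acid diet and -0.30 ± 0.18 (adjusted p = 0.309 by edgeR) on the control diet. The annotated span of Fdft1 overlaps Ctsb on the opposite strand by 774 bases, that of Cyp51 overlaps Akap9 by 166 bases and that of Tm7sf2 overlaps Vps51 by 532 bases, and the strand used in counting is not given in the sources used here. Lss, which closes the sterol ring, changed by -0.74 ± 0.24 (adjusted p = 0.0239 by edgeR) at 10 d on the folic acid diet and by -0.82 ± 0.24 (adjusted p = 0.0149 by edgeR) on the control diet; without the 4 libraries the folic acid value was -0.65 (adjusted p = 0.235 by edgeR). The call of Lss at 10 d was lost when any of 3 single libraries was left out on the folic acid diet (edgeR adjusted p up to 0.0769), and any of 4 of the 8 on the control diet (edgeR adjusted p up to 0.0712).

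Of the 8 enzymes that turn lanosterol into cholesterol, 7 fell at 3 d and 6 at 10 d on the folic acid diet. With the control diet 5 fell at 3 d and 4 at 10 d. The shares of all genes lower were 8.27 and 11.7% on the folic acid diet and 6.15 and 9.45% on the control diet. With library totals alone Ebp and Sc5d would have positive changes at both times on the folic acid diet. So would Sc5d at both times, and Msmo1 at 10 d, on the control diet. Calls among these would be Ebp (adjusted p = 0.00322 by edgeR) and Sc5d (adjusted p = 0.0262 by edgeR) at 10 d on the folic acid diet. Sc5d at 10 d on the control diet would be another (adjusted p = 0.0348 by edgeR), and the rest would not be calls. Cyp51 (chr5:4081145-4104746) removes the first methyl group of lanosterol. Cyp51 read 168, 212, 289.6 and 223 CPM in intact glands, 44.8, 41.5, 42.4 and 44.1 CPM at 3 d and 129.6, 82.98, 86.6 and 64.99 CPM at 10 d on the folic acid diet. Cyp51 read 208, 194, 196 and 227 CPM in intact glands, 55.3, 40.9 and 50.8 CPM at 3 d and 243, 134, 141 and 80.9 CPM at 10 d on the control diet. At 3 d its levels lay close together and far below intact glands on both diets. At 10 d they stayed below on the folic acid diet but overlapped on the control diet, through replicate 1 alone. Its log2 change was -2.37 ± 0.24 (adjusted p = 5.6e-08 by edgeR) at 3 d and -1.29 ± 0.23 (adjusted p = 0.000138 by edgeR) at 10 d on the folic acid diet. In control-diet glands it was -2.07 ± 0.26 (adjusted p = 2.36e-06 by edgeR) at 3 d and -0.46 ± 0.23 (adjusted p = 0.177 by edgeR) at 10 d. Without control 10 d replicate 1, the last value was -0.80 (adjusted p = 0.00767 by edgeR), a call.

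Msmo1 (chr8:64718139-64733792), the methyl oxidase that follows, is listed in the table by its older symbol Sc4mol. Msmo1 read 65.5, 89.6, 118 and 83.5 CPM in intact glands, 18.3, 24.5, 27.03 and 20.4 CPM at 3 d and 51.99, 23.1, 37.9 and 30.5 CPM at 10 d on the folic acid diet. Msmo1 read 99.7, 93.9, 81.5 and 81.4 CPM in intact glands, 26.9, 34.8 and 25.9 CPM at 3 d and 78.99, 50.5, 55.3 and 40.3 CPM at 10 d on the control diet. Castrated glands lay below intact ones at both times on both diets. The change was -1.98 ± 0.22 (adjusted p = 1.49e-07 by edgeR) at 3 d and -1.31 ± 0.22 (adjusted p = 3.91e-05 by edgeR) at 10 d on the folic acid diet. It was -1.61 ± 0.24 (adjusted p = 1.78e-05 by edgeR) at 3 d and -0.66 ± 0.21 (adjusted p = 0.029 by edgeR) at 10 d with the control diet. The last value lost its call when any of 5 single libraries was left out (edgeR adjusted p up to 0.122).

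Dhcr7, which makes the final reduction, and Tm7sf2, a sterol reductase, fell in all 4 comparisons with intact glands and were not called between 3 d and 10 d. Dhcr7 changed by -1.59 ± 0.27 (adjusted p = 0.000101 by edgeR) at 3 d and -1.98 ± 0.27 (adjusted p = 2.07e-06 by edgeR) at 10 d on the folic acid diet. The control-diet values were -1.53 ± 0.29 (adjusted p = 0.00048 by edgeR) at 3 d and -1.36 ± 0.27 (adjusted p = 0.000322 by edgeR) at 10 d. Tm7sf2 changed by -2.48 ± 0.46 (adjusted p = 0.000143 by edgeR) at 10 d on the folic acid diet, at 1.65 to 4.26 CPM against 11.1 to 34.6 CPM in intact glands. The highest intact value belonged to replicate 3, and the others read 11.1 to 12.5 CPM; without the 4 libraries that stood apart the change was -1.79 (adjusted p = 0.0342 by edgeR). At 3 d on that diet the call of Tm7sf2 was lost without intact replicate 3 (-1.32, adjusted p = 0.0535 by edgeR). Its control-diet 10 d change of -1.27 ± 0.44 (adjusted p = 0.0433 by edgeR) lost its call when any of 7 of the 8 libraries was left out, and its 3 d change of -1.56 ± 0.49 (adjusted p = 0.0377 by edgeR) when any of the 7 was. Sc5d, the sterol desaturase, showed smaller falls, between -0.62 ± 0.19 and -0.69 ± 0.19. Ebp, the sterol isomerase, was called on the folic acid diet only, with -0.64 ± 0.19 (adjusted p = 0.0222 by edgeR) at 3 d, and Hsd17b7, a ketosteroid reductase, only at 3 d on that diet (-1.22 ± 0.41 (adjusted p = 0.0436 by edgeR)). On the control diet Ebp read 51.96 to 57.12 CPM in intact glands, 38.11 to 39.96 CPM at 3 d and 41.72 to 49.18 CPM at 10 d. A fit of only the groups compared called Ebp lower at 3 d on the control diet (-0.48, adjusted p = 0.0316 by edgeR). That fit did not call it at 3 d on the folic acid diet (-0.63, adjusted p = 0.0592 by edgeR). Nsdhl, which removes the methyl groups together with Msmo1, was called nowhere, with changes between -0.40 ± 0.36 and 0.06 ± 0.35. The calls of Sc5d at 3 d on both diets, of Ebp at both times and of Hsd17b7 were each lost when any of 3 to 5 single libraries was left out (edgeR adjusted p up to 0.203). That of Sc5d at 10 d on the control diet was lost without intact replicate 1 (adjusted p = 0.104 by edgeR) or 10 d replicate 4 (adjusted p = 0.0738 by edgeR). Without the 4 libraries that stood apart Sc5d on the folic acid diet was -0.51 (adjusted p = 0.0629 by edgeR) at 3 d and -0.39 (adjusted p = 0.299 by edgeR) at 10 d. Without them Ebp was -0.65 (adjusted p = 0.069 by edgeR) at 10 d and Hsd17b7 -1.24 (adjusted p = 0.0578 by edgeR) at 3 d on that diet.

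Over the 18 synthesis enzymes together, every log2 change was negative at 3 d, with a median of -1.47 on the folic acid diet and -1.10 on the control diet; the medians of all genes tested were 0.012 and -0.0059. With library totals alone the 3 d medians would be -0.69, with 13 of 18 negative, on the folic acid diet and -0.37, with 14 of 18 negative, on the control diet. At 10 d the median was -1.09 on the folic acid diet, with 18 of 18 negative, and -0.44 on the control diet, with 16 of 18 negative; with library totals alone these 10 d medians would be 0.16 and 0.67, below the median gene but above intact glands. As a share of the intact mean of the same diet, the median enzyme stood at 36.1% at 3 d and 47% at 10 d on the folic acid diet, and at 46.6% and 74% on the control diet. The enzymes' mean log2 level, relative to intact control glands, lay between -1.48 and -1.31 at 3 d and between -1.51 and -0.64 at 10 d on the folic acid diet. In control-diet glands it lay between -1.36 and -1.21 at 3 d and between -0.96 and -0.11 at 10 d. The 10 d glands thus spread widely on both diets, and every control 10 d gland stood above every control 3 d gland, while on the folic acid diet the groups overlapped. The enzymes' median change at 10 d on the control diet was -0.73 without control 10 d replicate 1 and -0.24 without control 10 d replicate 4.

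**Figure D2:**
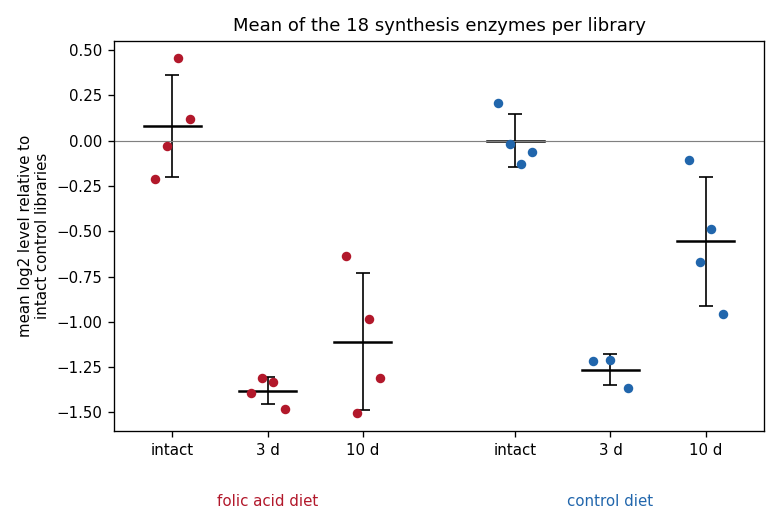
Mean log2 level of the 18 synthesis enzymes in each library (points; y axis relative to the mean of intact control libraries, TMM scale) with group mean and SD, on the folic acid diet (left) and the control diet (right). The 3 d libraries lie between -1.48 and -1.21, and the 10 d libraries spread from -1.51 to -0.11.

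**Figure D3:**
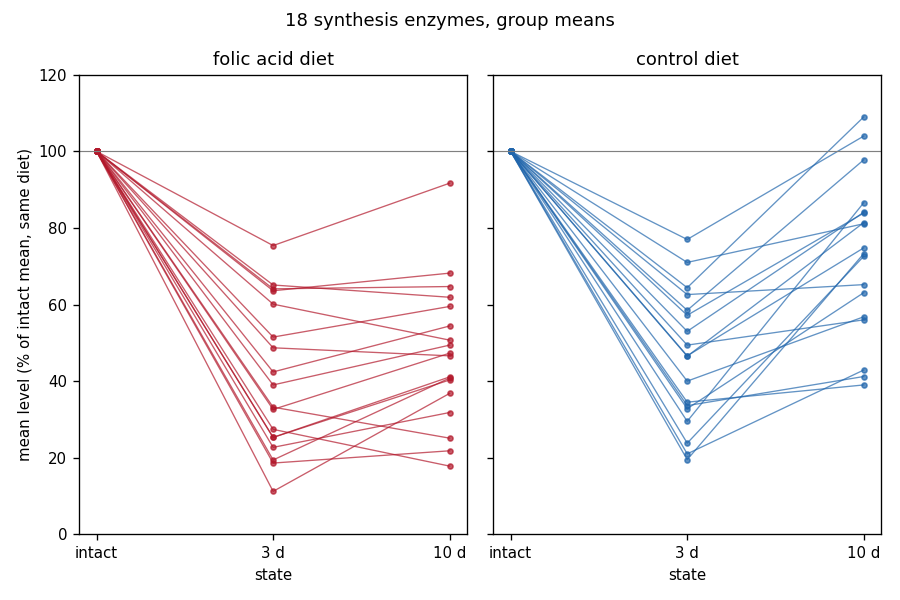
Group mean of each synthesis enzyme (lines) as a percentage of the intact mean of the same diet (y axis), by state, on the folic acid diet (left) and the control diet (right). The median enzyme is at 36.1% and 47% at 3 d and 10 d on the left, and at 46.6% and 74% on the right.

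Among the genes that control SREBP2, Insig1 and Scap fell at 3 d on both diets, as did Srebf2, and Insig2 was not called. With library totals alone Scap would not be lower at 3 d on the control diet, nor Srebf2 at 10 d on the folic acid diet. These are not the only calls lost with that scaling. It left 0 members called lower at 10 d on the control diet, so that the call of Scap there was lost too. On the folic acid diet it left 3 members lower at 10 d. Insig1 (chr5:28071363-28078662), itself a target of SREBP2, holds the SCAP complex in the endoplasmic reticulum. Insig1 read 192, 216, 281 and 273 CPM in intact glands, 48.3, 37.1, 42.4 and 43 CPM at 3 d and 121, 62.3, 69.1 and 72.95 CPM at 10 d on the folic acid diet. Insig1 read 250.5, 235, 187 and 172 CPM in intact glands, 60.05, 44.3 and 60.6 CPM at 3 d and 213, 142, 136 and 92.4 CPM at 10 d on the control diet. At 3 d every gland lay far below the intact ones, and at 10 d the groups still did not overlap on the folic acid diet but did on the control diet. The log2 change of Insig1 was -2.49 ± 0.22 (adjusted p = 2.66e-09 by edgeR) at 3 d and -1.56 ± 0.21 (adjusted p = 2.82e-06 by edgeR) at 10 d on the folic acid diet. In control-diet glands it was -1.94 ± 0.24 (adjusted p = 1.12e-06 by edgeR) at 3 d and -0.53 ± 0.21 (adjusted p = 0.0819 by edgeR) at 10 d. The last of these was -0.77 without control 10 d replicate 1 (adjusted p = 0.0109 by edgeR).

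Srebf2 (chr15:82147181-82205379) encodes the factor itself. Srebf2 read 69.5, 85.9, 113 and 83.7 CPM in intact glands, 35.01, 37.8, 34.4 and 48.98 CPM at 3 d and 75.7, 46.6, 38.01 and 45.5 CPM at 10 d on the folic acid diet. Srebf2 read 99.1, 90.4, 79.2 and 69.5 CPM in intact glands, 50.5, 46.1 and 39.4 CPM at 3 d and 96.5, 37.5, 75.6 and 59.9 CPM at 10 d on the control diet. The 3 d glands lay below the intact ones on both diets, and the 10 d groups overlapped with them, with replicate 1 the highest of each. The change was -1.17 ± 0.23 (adjusted p = 0.000561 by edgeR) at 3 d and -0.77 ± 0.22 (adjusted p = 0.0125 by edgeR) at 10 d on the folic acid diet. It was -0.90 ± 0.25 (adjusted p = 0.0163 by edgeR) at 3 d and -0.33 ± 0.22 (adjusted p = 0.361 by edgeR) at 10 d with the control diet. Without the 4 libraries that stood apart the 10 d value on the folic acid diet was -0.39 (adjusted p = 0.442 by edgeR), and with library totals alone it would be 0.48. Without intact replicate 3 alone it was -0.63 (adjusted p = 0.0625 by edgeR). At 3 d on the control diet the call of Srebf2 was lost without intact replicate 1, 3 d replicate 3 or 3 d replicate 4 (edgeR adjusted p between 0.0533 and 0.0887).

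Scap (chr9:110333288-110384950) encodes the escort of SREBP2. Scap read 97.3, 110.3, 94.2 and 98.3 CPM in intact glands, 54.5, 43.7, 45.2 and 62.1 CPM at 3 d and 47.01, 24.1, 31.8 and 41.6 CPM at 10 d on the folic acid diet. Scap read 109.9, 87.5, 109.8 and 68.8 CPM in intact glands, 69.5, 37.5 and 65.1 CPM at 3 d and 46.8, 26.2, 50.7 and 37.1 CPM at 10 d on the control diet. The 10 d glands all lay below the intact ones, and at 3 d 1 control gland lay just above the lowest intact gland. Its change was -0.96 ± 0.22 (adjusted p = 0.00241 by edgeR) at 3 d and -1.47 ± 0.22 (adjusted p = 8.44e-06 by edgeR) at 10 d on the folic acid diet. The control-diet values were -0.71 ± 0.23 (adjusted p = 0.0483 by edgeR) at 3 d and -1.23 ± 0.22 (adjusted p = 9.61e-05 by edgeR) at 10 d. The call at 3 d on the control diet was lost when any of 5 single libraries was left out, and the value with library totals alone was 0.033. From 3 d to 10 d Scap did not pass the test on either diet, with -0.51 ± 0.22 (adjusted p = 0.336 by edgeR) on the folic acid diet and -0.51 ± 0.23 (adjusted p = 0.433 by edgeR) on the control diet.

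Insig2 (chr1:121304353-121332589), the second INSIG gene, is known in mouse liver for a transcript that does not depend on SREBP2. Insig2 read 35.01, 46.1, 38.3 and 41.2 CPM in intact glands, 34.2, 35.1, 48.8 and 46.9 CPM at 3 d and 31.2, 49.5, 32.6 and 30.2 CPM at 10 d on the folic acid diet. Insig2 read 34.7, 33.3, 30.6 and 28.98 CPM in intact glands, 35.7, 33.7 and 51.1 CPM at 3 d and 32.7, 44.9, 31.7 and 39.8 CPM at 10 d on the control diet. The groups overlapped in every castration comparison. The 95% interval of its log2 change at 3 d ran over -0.35 to 0.42 on the folic acid diet and -0.08 to 0.75 on the control diet, so a fall of the size seen for Insig1 lies outside both.

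Between 3 d and 10 d few genes of the whole table changed, and members of this module were among those that rose. On the folic acid diet 3 members were higher at 10 d than at 3 d (Idi1, Cyp51 and Insig1) and 1 was lower (Abca1), against 0.164% higher and 0.47% lower among all genes tested. For the control diet 4 members were higher (Cyp51, Insig1, Idi1 and Sqle) and none lower, against 0.0895% higher and 0.261% lower among all genes, so that 4 of the 12 genes higher at 10 d in the whole table were members. In either direction 14 of the 31 members had an unadjusted p under 0.05 in that comparison, where 10.4% of all genes did. DESeq2 called 7 members, all higher. The shares of all genes above are those of edgeR, and the share called by DESeq2 is not given here. The change from 3 d to 10 d was 1.71 ± 0.31 (adjusted p = 0.00445 by edgeR) for Idi1, 1.08 ± 0.23 (adjusted p = 0.0199 by edgeR) for Cyp51 and 0.93 ± 0.21 (adjusted p = 0.0292 by edgeR) for Insig1 on the folic acid diet. With the control diet it was 1.91 ± 0.34 (adjusted p = 0.00515 by edgeR) for Idi1, 1.61 ± 0.26 (adjusted p = 0.00258 by edgeR) for Cyp51, 1.41 ± 0.24 (adjusted p = 0.00267 by edgeR) for Insig1 and 1.55 ± 0.32 (adjusted p = 0.0262 by edgeR) for Sqle. For Idi1, Cyp51 and Insig1 the 10 d glands all lay above the 3 d glands on both diets, as the levels above show, and Sqle overlapped on the folic acid diet.

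The return was not complete in these values and was not the same for all enzymes. All 18 enzymes had a positive change from 3 d to 10 d on the control diet, with a median of 0.67, and 13 of 18 on the folic acid diet, with a median of 0.26. Of the 15 members lower at 3 d on the control diet, 7 were no longer called lower at 10 d, whereas of the 19 lower at 3 d on the folic acid diet 1 was no longer called lower, Hsd17b7. Of those 7, Hmgcs1, Idi1, Cyp51 and Insig1 were called lower at 10 d when control 10 d replicate 1 was left out. The share of all genes called lower at 3 d but not at 10 d is not given here. Sc5d, Dhcr7 and Tm7sf2 had changes from 3 d to 10 d of 0.06 ± 0.21, 0.17 ± 0.29 and 0.29 ± 0.48 on the control diet, none of them called. On the folic acid diet, leaving out any 3 d library or 10 d replicate 1 left 1 member higher, Idi1, and without the 4 libraries that stood apart Cyp51 lost its call (1.17, adjusted p = 0.0943 by edgeR). Insig1 also lost its call without 10 d replicate 4 (0.98, adjusted p = 0.0513 by edgeR). A fit of only the groups compared did not call it either (0.92, adjusted p = 0.0849 by edgeR). Leaving out single libraries left 3 to 5 members higher with the control diet, and Sqle was lost without 3 d replicate 1 or 3, or without 10 d replicate 1 or 2, and Idi1 without 3 d replicate 4. Without replicate 1 of the 10 d group the enzymes' median change from 3 d to 10 d was 0.046 on the folic acid diet and 0.36 on the control diet.

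**Figure D4:**
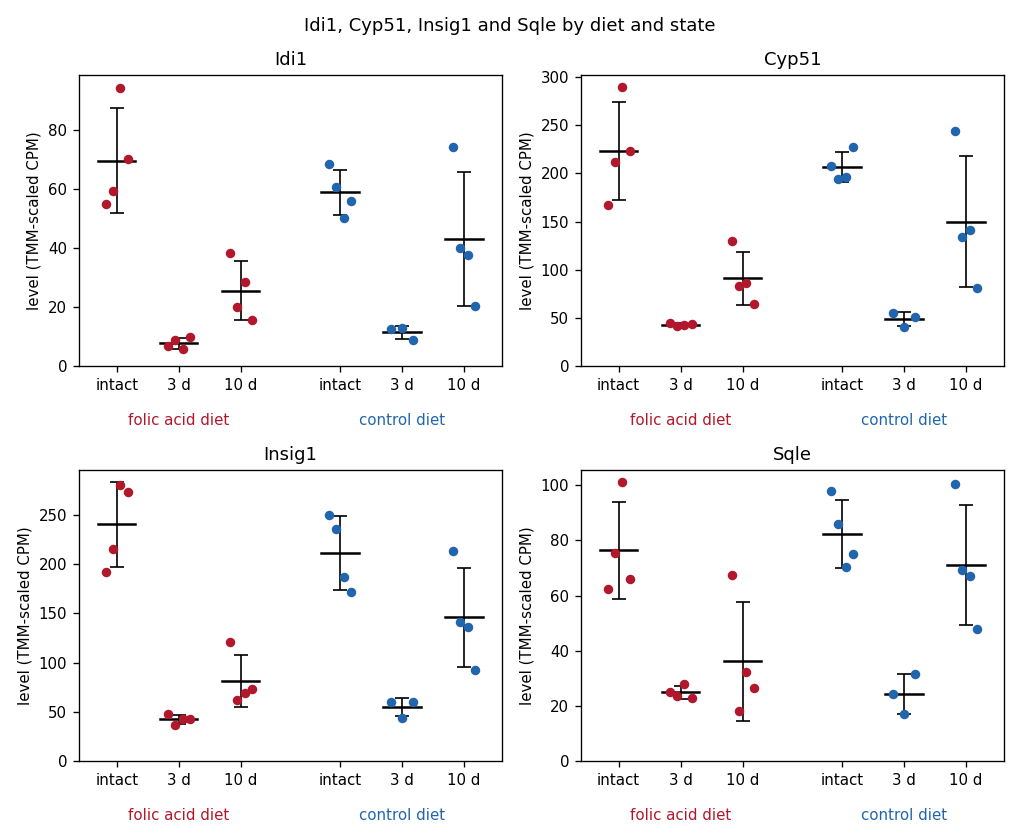
Levels (y axis, TMM-scaled CPM) of Idi1, Cyp51, Insig1 and Sqle in each library (points) with group mean and SD, by state, on the folic acid diet (left in each panel) and the control diet (right). The mean of all 4 genes is lowest at 3 d on both diets, and replicate 1 is the highest 10 d library on both diets.

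Genes of uptake and transport within the cell did not move together. Stard4 (chr18:33199355-33213862) encodes a sterol carrier of the cytosol and is a known target of SREBP2. Stard4 read 57.99, 49.97, 59.4 and 76.3 CPM in intact glands, 77.6, 68.4, 81.8 and 65.2 CPM at 3 d and 109, 65.7, 82.1 and 80.8 CPM at 10 d on the folic acid diet. Stard4 read 66.1, 53.7, 46.8 and 59.05 CPM in intact glands, 77.3, 59.4 and 92.6 CPM at 3 d and 156, 104, 124 and 127 CPM at 10 d on the control diet. All 10 d glands of the control diet lay above the intact and the 3 d ones, while on the folic acid diet the groups overlapped. The change of Stard4 at 10 d was 0.47 ± 0.17 (adjusted p = 0.0483 by edgeR) on the folic acid diet and 1.18 ± 0.17 (adjusted p = 6.79e-06 by edgeR) on the control diet, a direction opposite to that of the enzymes. At 3 d it was 0.27 ± 0.17 (adjusted p = 0.344 by edgeR) on the folic acid diet and 0.44 ± 0.19 (adjusted p = 0.145 by edgeR) on the control diet. The folic acid call at 10 d was lost when any of 6 single libraries was left out, and without the 4 that stood apart (0.63, adjusted p = 0.0664 by edgeR).

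Npc2 (chr12:84754562-84773152) encodes the soluble protein that hands cholesterol on inside lysosomes and is also secreted. Npc2 read 523, 594, 536 and 400.0 CPM in intact glands, 213, 293, 308 and 195 CPM at 3 d and 260.1, 143, 335 and 257 CPM at 10 d on the folic acid diet. Npc2 read 459, 444, 456 and 533 CPM in intact glands, 214, 248 and 201 CPM at 3 d and 194, 280.4, 202 and 246 CPM at 10 d on the control diet. All castrated glands lay below the intact glands of their diet, with no sign of a return. The change was -1.02 ± 0.20 (adjusted p = 0.000464 by edgeR) at 3 d and -1.04 ± 0.20 (adjusted p = 0.000199 by edgeR) at 10 d on the folic acid diet. In control-diet glands it was -1.10 ± 0.22 (adjusted p = 0.000647 by edgeR) at 3 d and -1.04 ± 0.20 (adjusted p = 0.000231 by edgeR) at 10 d. With library totals alone the 10 d change of Npc2 would be 0.18 on the folic acid diet and 0.061 on the control diet. Its membrane partner Npc1 was called nowhere, with 0.59 ± 0.23 (adjusted p = 0.0606 by edgeR) at 10 d on the folic acid diet and 0.16 ± 0.22 (adjusted p = 0.714 by edgeR) on the control diet. Npc1 was called higher at 10 d on the folic acid diet with DESeq2 (0.61, adjusted p = 0.0392). Scarb1, the high-density lipoprotein receptor, ranged over 2.82 to 14.6 CPM in all libraries and was called in no comparison.

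Of the 5 genes of efflux and of the liver X receptor response, 2 were higher at 3 d and 3 at 10 d on the folic acid diet. With the control diet 2 were higher at each time, and none was lower on either diet. The shares of all genes higher were 6.07 and 10.2% on the folic acid diet and 3.83 and 7.15% on the control diet. Mylip (chr13:45389742-45412022) and Abca1 (chr4:53030787-53159895) rose at both times on both diets, also with library totals alone. Mylip read 251, 261, 296 and 257 CPM in intact glands, 1168, 1118, 976 and 1075 CPM at 3 d and 1114, 675, 1301 and 964 CPM at 10 d on the folic acid diet. Mylip read 239.9, 176, 158 and 229 CPM in intact glands, 1146, 959 and 1116 CPM at 3 d and 1323, 1003, 1091 and 1325 CPM at 10 d on the control diet. No castrated gland came near an intact one, and the 3 d and 10 d glands overlapped on both diets. The log2 change of Mylip was 2.03 ± 0.18 (adjusted p = 1.62e-09 by edgeR) at 3 d and 1.93 ± 0.18 (adjusted p = 1.93e-09 by edgeR) at 10 d on the folic acid diet. It was 2.42 ± 0.19 (adjusted p = 1.02e-10 by edgeR) at 3 d and 2.56 ± 0.18 (adjusted p = 5.59e-12 by edgeR) at 10 d with the control diet.

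Abca1 encodes the exporter that loads cholesterol onto apolipoproteins. Abca1 read 16.8, 22.5, 10.9 and 24.9 CPM in intact glands, 149, 140.2, 112 and 190.5 CPM at 3 d and 70.3, 97.1, 79.3 and 78.1 CPM at 10 d on the folic acid diet. Abca1 read 22.98, 19.9, 21.4 and 23.6 CPM in intact glands, 117, 109 and 142 CPM at 3 d and 46.6, 69.8, 79.5 and 95.3 CPM at 10 d on the control diet. The 3 d glands were the highest, the 10 d glands lay between, and the intact glands were the lowest, with no overlap between states within a diet. The change was 2.98 ± 0.22 (adjusted p = 4.13e-11 by edgeR) at 3 d and 2.12 ± 0.22 (adjusted p = 1.02e-08 by edgeR) at 10 d on the folic acid diet. The control-diet values were 2.48 ± 0.23 (adjusted p = 1.85e-09 by edgeR) at 3 d and 1.73 ± 0.21 (adjusted p = 2.48e-07 by edgeR) at 10 d. From 3 d to 10 d it was -0.86 ± 0.20 (adjusted p = 0.0327 by edgeR) on the folic acid diet, where the call was lost when any of 6 single libraries or the 4 that stood apart were left out, and -0.75 ± 0.22 (adjusted p = 0.151 by edgeR) on the control diet.

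Abcg1, a second exporter, was near the limit of detection, at 0.339 to 0.983 CPM in intact glands of the folic acid diet and 1.05 to 7.87 CPM at 10 d, with a change of 2.34 ± 0.78 (adjusted p = 0.0286 by edgeR). That call was lost with the replicate number as a block (adjusted p = 0.0531 by edgeR), without the 4 libraries that stood apart (1.68, adjusted p = 0.264 by edgeR), and when any of 3 single libraries was left out (edgeR adjusted p up to 0.184). The receptors themselves were not called: Nr1h2 ranged over 14.1 to 36.2 CPM and Nr1h3 over 0.36 to 6.37 CPM in all libraries. Macrophages are known to carry Abca1, Abcg1 and Nr1h3. Of 11 macrophage markers 4 were higher at 3 d and 7 at 10 d on the folic acid diet, against 6.07 and 10.2% of all genes. On the control diet, where 3.83 and 7.15% of all genes were higher, so were 6 and 5 of these markers. Their summed level was 50.9 to 91.2 CPM in intact glands, 137 to 181 CPM at 3 d and 144 to 358 CPM at 10 d on the folic acid diet. With the control diet it was 64.2 to 103 CPM in intact glands, 198 to 275 CPM at 3 d and 153 to 256 CPM at 10 d. The part of macrophages in the rise of Abca1 and Abcg1 was not tested.

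**Figure D5:**
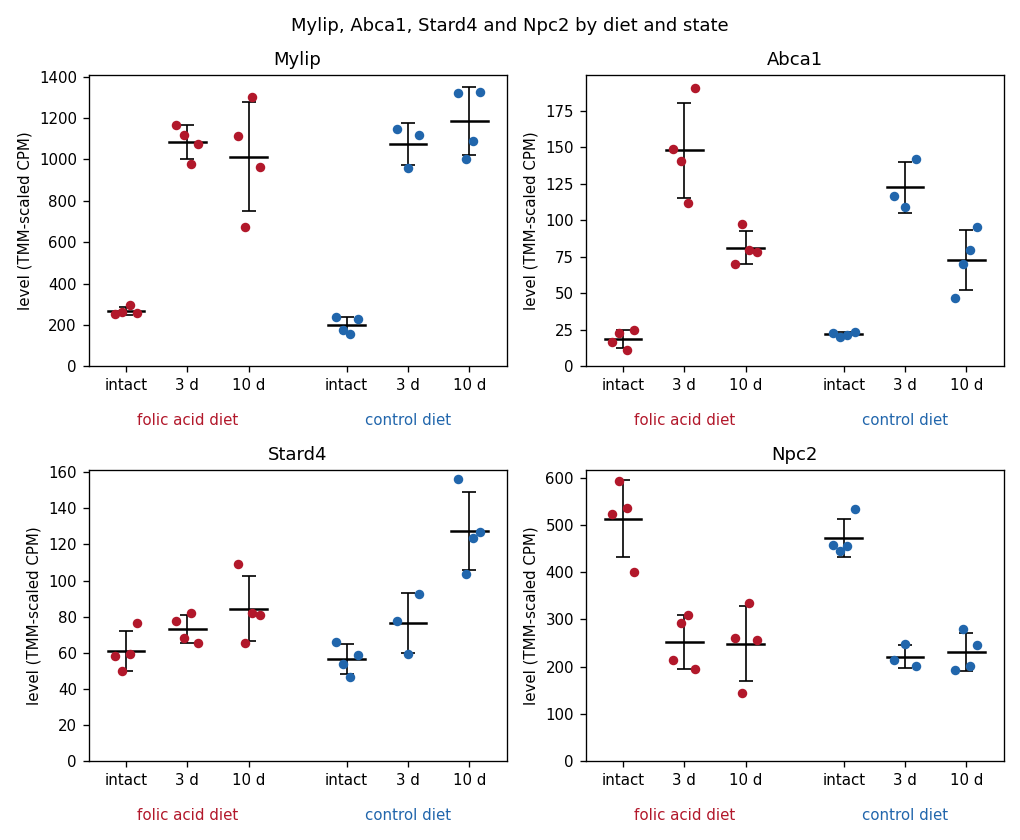
Levels (y axis, TMM-scaled CPM) of Mylip, Abca1, Stard4 and Npc2 in each library (points) with group mean and SD, by state, on the folic acid diet (left in each panel) and the control diet (right). Mylip lies between 158 and 296 CPM in intact glands and at 675 CPM or more in all castrated glands, Abca1 peaks at 3 d, and Npc2 stays low at 10 d.

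Set against the control diet, the folic acid diet gave no call among the members. In intact glands 0 members were called, against 0.0522% of all genes, with 1 member at an unadjusted p under 0.05, as were 6.25% of all genes. At 3 d 0 were called, against 0.0671% of all genes, with 1 at an unadjusted p under 0.05, as were 6.5% of all genes. At 10 d 0 were called by edgeR, against 0.119% of all genes, while 11 of 31 had an unadjusted p under 0.05, where 4.86% of all genes did. For the mean over the 3 states 0 were called, against 0.35% of all genes, with 3 at an unadjusted p under 0.05, as were 7.04% of all genes. DESeq2 called 1 member at 10 d, Insig1 (-0.82, adjusted p = 0.0464), and 0 in intact glands, at 3 d and for the mean. The share of all genes that DESeq2 called is not given here. At 10 d all 18 enzymes had lower fitted levels on the folic acid diet, with changes between -0.97 and -0.14 and a median of -0.54, while 49.6% of all genes were negative. In intact glands 6 of 18 were negative, with a median of 0.12, which was -0.024 without folic acid intact replicate 3. At 3 d 11 of 18 were negative, with a median of -0.12, which was -0.004 without control 3 d replicate 4. The enzymes move together within a library, so their shared sign is not 18 separate results.

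The 10 d values of single genes overlapped between the diets for each of the 14 members whose libraries are listed above. The smallest p of this comparison belonged to Insig1, with -0.84 ± 0.21 (adjusted p = 0.162 by edgeR), followed by Stard4, with -0.59 ± 0.17 (adjusted p = 0.359 by edgeR), and Fdps, with -0.93 ± 0.27 (adjusted p = 0.373 by edgeR). The change was -0.97 ± 0.29 (adjusted p = 0.426 by edgeR) for Sqle and -0.74 ± 0.29 (adjusted p = 0.846 by edgeR) for Idi1, with a 95% interval of -1.34 to -0.15 for Idi1. Without folic acid 10 d replicate 1 there were 3 calls, all lower on the folic acid diet (Sqle at -1.47, Fdps at -1.27 and Insig1 at -1.10), and without control 10 d replicate 4 there was 1, Insig1 at -1.01. The enzymes' median at 10 d lay between -0.71 and -0.37 when single libraries were left out, with all 18 negative each time.

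Whether castration acted differently on the diets was tested by the interaction. No member was called in the interaction at 3 d, where 0% of all genes were called, nor at 10 d, where 0.0149% were, nor in that of 10 d against 3 d, where 0% were. At an unadjusted p under 0.05 there were 1, 11 and 3 of the 31 members in these comparisons, where 4.85, 5.43 and 5.17% of all genes were, and DESeq2 called 0 in each. The 10 d interaction had a median of -0.76 over the 18 enzymes, with 17 of 18 negative, and it was -1.03 ± 0.30 (adjusted p = 0.87 by edgeR) for Insig1 and -0.70 ± 0.25 (adjusted p = 0.87 by edgeR) for Stard4. Without control 10 d replicate 1 the median was -0.49, and without the 4 libraries that stood apart -0.41. The larger number of members still lower at 10 d on the folic acid diet is thus not shown to differ from that on the control diet for any single gene.

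Of 48 further genes of sterol biology, such as sterol carriers, regulators of SREBP processing and esterification enzymes, 42 passed the filter. On the folic acid diet 3 were lower and 1 higher at 3 d, and 10 lower and 3 higher at 10 d. That is 7.14% lower at 3 d and 23.8% at 10 d, where 8.27 and 11.7% of all genes were. Higher on that diet were 6.07 and 10.2% of all genes. With the control diet 3 were lower and 1 higher at 3 d, and 7 lower and 1 higher at 10 d. That is 7.14% lower at 3 d and 16.7% at 10 d, where 6.15 and 9.45% of all genes were. Higher on the control diet were 3.83 and 7.15% of all genes. Between 3 d and 10 d 1 of them was called on each diet, and it was higher at 10 d. Among all genes 0.164% were higher in that comparison on the folic acid diet and 0.0895% on the control diet. Their median changes from intact glands lay between -0.16 and -0.071, closer to 0 than those of the 18 enzymes. Erlin1, a membrane protein that takes part in holding SREBP in place, changed by -0.44 ± 0.16 (adjusted p = 0.0392 by edgeR) at 10 d on the folic acid diet and -0.86 ± 0.16 (adjusted p = 0.000117 by edgeR) on the control diet. The sterol-binding proteins Osbpl1a, Osbpl2 and Gramd1a were lower at 10 d on both diets, with -1.13 ± 0.33 (adjusted p = 0.0131 by edgeR) for Gramd1a on the folic acid diet and -1.51 ± 0.34 (adjusted p = 0.00159 by edgeR) on the control diet. Soat1, which esterifies cholesterol for storage, was higher at 3 d on the control diet (0.78 ± 0.25 (adjusted p = 0.0438 by edgeR)). It was also the 1 gene of this list called in a diet comparison, lower on the folic acid diet over the mean of the 3 states, with -0.92 ± 0.14 (adjusted p = 0.000256 by edgeR).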

How the data were processed

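Poly-A RNA from ventral prostates was sequenced in 23 libraries, and the authors deposited 1 table of unscaled expected counts (RSEM's estimate of reads for each gene). The submitters' processing notes name RSEM 1.2.3, Bowtie 0.12.9, bcl2fastq 2.17.1.14 and build mm10. Strand setting and annotation are not given in the sources used. There was 1 column of per-sample values that no sample label described (its name reads as a second control 3 d replicate), and it was left out. Expected counts were rounded (19.5% of the values were not whole). RSEM divides shared reads between related or overlapping genes by estimate.

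The filter filterByExpr (6 groups, minimum count 10, minimum total 15) left 13412 genes, which were scaled by TMM factors of 0.553 to 1.69. A single quasi-likelihood model of edgeR 4.0.16 (robust, in R 4.3.3) was fitted to all 23 libraries with 1 mean per group, and 13 comparisons were tested. Benjamini-Hochberg adjusted p-values were taken over all tested genes, with calls under 0.05. Log2 changes are given ± SE, and levels as TMM-scaled CPM. The median SE of a member's log2 change ran over 0.226 to 0.262 between pairs of groups, at library totals of 6381550 to 15616042 counts. P-values set each difference of group means against the spread between these libraries. That spread was estimated over all 23 libraries and moderated across genes. The script was tested on simulated counts.

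The members and lists were chosen with earlier results of these data known. Values in every library are given for the 2 members of each role with the smallest p against intact glands, for Insig1, Insig2, Srebf2 and Stard4, and for members called between 3 d and 10 d. Further genes of sterol biology are named only where called and among the 8 with the smallest p. For some genes the results are not given here. Alternatives were DESeq2 1.42.0 and its size factors, library totals alone, no filter, a fit of only the groups compared, the replicate number as a block, leaving out 4 libraries, and leaving out each library in turn. Gene positions are from GENCODE on GRCm38 (mm10), and promoter sequences from RefSeq on GRCm38.p6.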

Additional observations from a re-analysis of the deposited data

Results flagged for a closer look

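In groups of 4 libraries, single values of members that stood far from the other 3 (Dixon's test at the 95% level) were found in 7 of 155 groups, and chance gives about 1 in 20. Tm7sf2 stood high in folic acid intact replicate 3, at 34.6 CPM against 11.1 to 12.5 CPM in the other 3, and in control 10 d replicate 3, at 6.81 CPM against 2.95 to 3.41 CPM. Control intact replicate 4 was low in Mvk, at 6.85 CPM against 12.3 to 12.4 CPM, and high in Npc2, at 533 CPM against 444 to 459 CPM. Insig2 stood high in folic acid 10 d replicate 2, at 49.5 CPM against 30.2 to 32.6 CPM. In folic acid 3 d replicate 2 Dhcr7 reached 13.8 CPM, where the others read 9.76 to 10.4 CPM. In folic acid 3 d replicate 1 Nr1h3 reached 3.43 CPM, where the others read 0.36 to 0.578 CPM. The source of these single values was not tested.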

How the results depend on the processing

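Over 80 calls of a member in a comparison, DESeq2's size factors and DESeq2's own test kept all 80, no filter 77, only the groups compared 70 and leaving out the 4 libraries that stood apart 65. Leaving out each library in turn kept 57 throughout. With library totals alone 38 kept their call, 25 lost it and 17 turned round. The members lower and higher were then 10 and 7 at 3 d, 3 and 12 at 10 d and 0 and 8 for 10 d against 3 d on the folic acid diet. On the control diet they were 7 and 7 at 3 d and 0 and 19 at 10 d, and 12 were higher at 10 d against 3 d. The log2 changes that turned were, at 10 d on the folic acid diet, 0.20 for Acat2, 0.30 for Mvk, 0.16 for Fdft1, 0.16 for Sqle, 0.48 for Lss, 0.61 for Ebp, 0.51 for Sc5d, 0.48 for Srebf2 and 0.18 for Npc2, and, at 3 d on that diet, 0.15 for Ebp and 0.13 for Sc5d. On the control diet they were 0.30 for Lss, 0.44 for Msmo1, 0.49 for Sc5d and 0.061 for Npc2 at 10 d, and 0.067 for Sc5d and 0.033 for Scap at 3 d. Of these 17 values only Ebp and Sc5d at 10 d on the folic acid diet and Sc5d at 10 d on the control diet were calls. This scaling leaves in place the shift of the median gene given above.

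Without the 4 libraries, 10 members were lower and 2 higher at 10 d on the folic acid diet, and 0 lower at 10 d against 3 d. Fitting only the groups compared gave 2 higher at 10 d and 0 lower at 10 d against 3 d on that diet. It lost the folic acid calls of Mvk, Sqle, Ebp, Sc5d, Stard4 and Abcg1 at 10 d. Also lost on that diet were Ebp at 3 d, and Insig1 and Abca1 at 10 d against 3 d. On the control diet Scap at 3 d was lost. DESeq2 called 7 members higher at 10 d against 3 d on the control diet and 1 member between the diets at 10 d. The share of all genes called under each of these settings is not given here. The cause of these differences was not tested.

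Leaving out single libraries gave, on the folic acid diet, 15 to 19 members lower at 3 d, 16 to 20 lower and 2 to 5 higher at 10 d, and 0 to 1 lower and 1 to 3 higher at 10 d against 3 d. On the control diet it gave 11 to 14 lower at 3 d, 4 to 11 lower at 10 d, and 3 to 5 higher at 10 d against 3 d. It gave 0 to 3 calls between the diets at 10 d.

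Same-numbered libraries did not pair: their deviations from the group means correlated at -0.149 to 0.237, with a median of 0.013 over 55 pairs, and 7 of 23 libraries correlated best with their own number. With the replicate block 79 of the 80 calls were kept (Abcg1 at 10 d on the folic acid diet was lost), 9 members were lower at 10 d on the control diet and 5 were higher at 10 d against 3 d on that diet, and no count of members moved by more than 1.5 times.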
